A study of Mus musculus with 12 samples.

Results

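Ultraconserved elements are stretches of the genome whose sequence is identical in human, mouse and rat. Some overlap exons, often of genes for splicing and other RNA-binding proteins, and others lie in introns or between genes, in many cases near regulators of development. RNA copied from such elements has been described in many normal tissues and at altered levels in tumours. The array used here carried 373 probes named for these elements (uc.mouse followed by a number from 1 to 483), among 97836 probes that were not controls. They were chosen by that name alone. Each of the 373 had its own number and 1 spot per array, and no name gave a strand, so a comparison of both strands of an element could not be made. The files pair the names with no gene, position or sequence, so where an element lies and which gene it overlaps, if any, is not given here.

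The RNA came from spleens of female BALB/c mice that were 6 weeks old at injection. OVA mice received ovalbumin, the main protein of hen's egg white and a standard antigen in mouse allergy models, into the peritoneum at 2 mg/kg on days 1, 3 and 5, and control mice received normal saline by the same schedule. There were 4 OVA arrays and 2 control arrays for day 14, and likewise 4 OVA arrays and 2 control arrays for day 28. All mice were of 1 strain with no genetic change named, and Cy3-labelled RNA of each sample was hybridised to a single-colour Agilent array. Nothing in the labels says how the mice were housed or handled, so p-values measure only the spread between these samples. In RNA from a whole spleen, fewer cells of a type and less RNA per cell cannot be told apart. None of 18 marker genes of spleen cell types had a named probe, so the tissue label could not be checked.

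Levels are log2 signal relative to the 75th percentile of the same array, and a probe counts as detected where the scanner software flagged it well above background. A probe's brightness also depends on how well it hybridises, so a level is set only against the same probe on other arrays. All 4 control arrays lay on 1 slide, the OVA arrays of day 14 on another and those of day 28 on the third. Slide and treatment therefore cannot be told apart wherever OVA arrays are set against controls, nor slide and day between the OVA groups. The 75th percentile itself was 484.2 to 549.4 signal units on the OVA arrays of day 28 and 267.4 to 370.8 on the other arrays. On OVA day 14 replicate 2 the lowest detectable level was -3.02, against -4.77 to -4.25 on the other 11 arrays, and 57.5% of its spots were well above background, against at least 72.4% elsewhere. Control day 14 replicate 1 carried a streak of 2920 spots whose log2 signal was raised by 2.66 (median), and 6 of the probes lay in it, among them uc.mouse.19, uc.mouse.66, uc.mouse.165, uc.mouse.167 and uc.mouse.421.

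A smaller share of the ultraconserved-element probes than of all probes on the array was detected. Of the 373, 119 (31.9%) were well above background on all 12 arrays, 117 (31.4%) on none and 137 on some. Over all probes these shares were 58.0% on all arrays and 12.9% on none. Among the other probes with 1 spot, 52.8% were detected on all arrays. By kind of probe this share was 39.2% for Ensembl and 39.1% for RefSeq non-coding transcripts, 51.8% for NONCODE and 56.4% for RIKEN clones. It was 31.0% for 29 probes of other kinds and 70.3% in the largest class. Counted per array, the OVA arrays of day 14 detected 119 to 209 of the probes, with replicate 2 the lowest, and the control arrays of that day 227 and 192. The OVA arrays of day 28 detected 211, 215, 197 and 196, and the control arrays of that day 211 and 208. Leaving aside OVA day 14 replicate 2, the counts of OVA and control arrays overlapped on day 14. On day 28 they overlapped too.

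**Figure D1:**
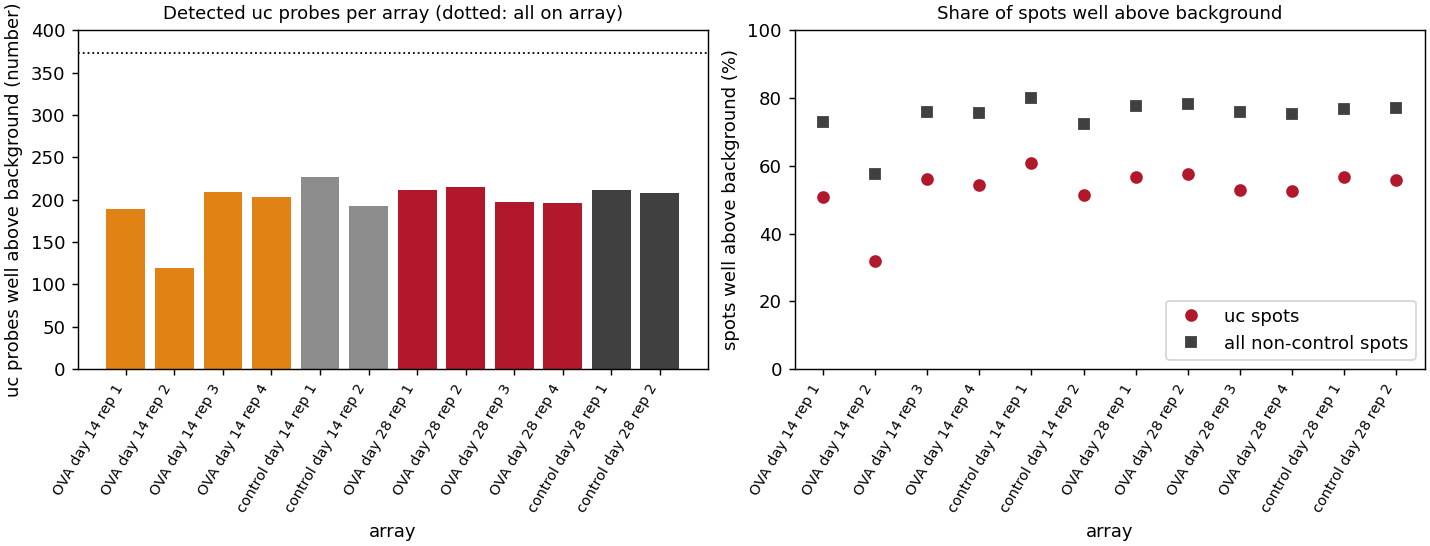
Left: number of probes of ultraconserved elements well above background on each of the 12 arrays (bars), with the dotted line at the 373 on the array. Right: the percentage of these spots (circles) and of all non-control spots (squares) well above background on the same arrays. The element spots lie below all spots on every array, and OVA day 14 replicate 2 has the fewest, 119.

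Detection on every array of a group reached 119 probes in OVA day 14, 185 in control day 14, 185 in OVA day 28 and 195 in control day 28. Without replicate 2 the OVA day 14 count was 180. In that order of groups these are 31.9%, 49.6%, 49.6% and 52.3% of the elements, against 58.1%, 73.6%, 74.0% and 76.3% of all probes. The most frequent patterns were detection in no group (168 probes), in all 4 groups (119), and in every group but OVA day 14 (52). A probe entered the tests below if it was detected on every array of at least 1 group, which left 205 of the 373 (55.0%), against 77.8% of all probes. For a probe that entered only through a group where it was bright, the filter favoured a difference there. The 168 probes that did not enter were not tested.

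In 4 comparisons probes were sought that were dim on every array of a group and detected on every array of the other. With OVA at day 14, uc.mouse.27 was dim on all 4 OVA arrays and detected on both control arrays, as were 0.289% of all probes. With OVA at day 28, uc.mouse.249 and uc.mouse.86 were dim on all 4 OVA arrays and detected on both control arrays, as were 0.262% of all probes. None of the 373 elements was detected on all OVA arrays and dim on both controls of either day. Of all probes, only 0.249% were so at day 28 and 0.00102% at day 14. In OVA spleens uc.mouse.27 was detected on every array of day 28 and none of day 14, as were 0.544% of all probes. In control spleens, uc.mouse.190 was detected on both arrays of day 28 and neither of day 14 (0.44% of all probes), and uc.mouse.26 the other way round (0.229% of all probes).

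Between 28 and 34 of the 373 probes (7.51% to 9.14%) lay above the 75th percentile on any array. Such counts describe the brightness of spots and not the amount of an RNA. All 31 whose mean level over the arrays was above it were among the 119 detected on every array, whose mean levels ran from -3.19 to 3.90 with a median of -1.40. The 117 probes detected nowhere had mean levels of -6.75 to -5.25. The brightest probe by mean level, uc.mouse.298, had 3.96, 4.22, 4.15 and 4.24 on the OVA arrays of day 14 and 3.94 and 4.26 on the controls of that day. On day 28 it had 3.49, 3.52, 3.53 and 3.38 on the OVA arrays and 4.02 and 4.13 on the controls. The 4 OVA arrays of day 28 thus lay below all other 8. The next 5 by mean level, uc.mouse.448, uc.mouse.186, uc.mouse.393, uc.mouse.175 and uc.mouse.264, did not pass the test of OVA against control on either day, with log2 differences from -0.28 to 0.18. In OVA spleens of day 28 against day 14, uc.mouse.186 rose by 0.41 (limma adjusted p = 0.013), and uc.mouse.448 and uc.mouse.393 fell by 0.29 and 0.27 (limma adjusted p of 0.023 and 0.041).

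OVA spleens of day 28 differed from control spleens of day 28 in 25 of the 205 tested probes, 15 higher and 10 lower. At an unadjusted p under 0.05 there were 44 (21.5%, against 29.2% of all). The 25 are 12.2%, against 12.8% of the 76096 probes tested over the whole array, and the shares higher (7.32% against 6.88%) and lower (4.88% against 5.92%) were also close. The threshold was an adjusted p under 0.05 in a limma model of all 12 arrays, adjusted over all probes tested. Of the 25, 4 exceeded 2-fold, 1 has only a bound, and the smallest change was 0.43 on the log2 scale. Detection was complete on all 12 arrays for 21 of them. uc.mouse.160 and uc.mouse.249 entered the test only through the group in which they were higher, so their differences do not count as support. The median difference was -0.00 over the tested elements and -0.03 over all tested probes. Groups of arrays did not overlap in 32.2% of the elements and 41.2% of all probes.

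The largest rise whose detection was complete on all 12 arrays was that of uc.mouse.200. It had -1.01, -1.46, -1.42 and -1.59 on the OVA arrays of day 28, against -2.82 and -2.59 on the controls. On day 14 it had -2.40, -2.67, -2.71 and -2.86 on the OVA arrays and -2.31 and -2.89 on the controls. Every OVA array of day 28 was above every other array, and the other 3 groups overlapped. The difference at day 28 was 1.34 ± 0.20 on the log2 scale (SE), 2.52-fold, with an adjusted p of 0.00346 from limma.

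The same arrangement held for uc.mouse.444, uc.mouse.355 and uc.mouse.77, whose levels on the OVA arrays of day 28 lay above all 8 other arrays. For uc.mouse.444 the levels were 0.83, 0.69, 1.00 and 1.15 on these OVA arrays, against -0.54 and -0.27 on the controls. Its day 14 levels were -0.45, -0.84, -0.57 and -0.53 on OVA arrays and -0.62 and -0.55 on controls, so those groups overlapped. At day 28 the difference was 1.32 ± 0.15 (SE), 2.50-fold (limma adjusted p = 0.00101). For uc.mouse.355 the levels were 0.03, 0.12, -0.03 and -0.02 on the OVA arrays of day 28, against -1.34 and -1.19 on the controls, a difference of 1.29 ± 0.13 (limma adjusted p = 0.000753). On day 14 it had -1.48, -1.46, -1.10 and -1.17 on OVA arrays and -1.68 and -1.41 on controls, which overlapped. For uc.mouse.77 the OVA arrays of day 28 had 0.46, 0.69, 0.78 and 0.46 and the controls -0.16 and -0.25, a difference of 0.80 ± 0.11 (limma adjusted p = 0.00261). Its day 14 levels lay between -0.45 and -0.32 on OVA arrays and at -0.43 and -0.46 on controls. The calls at day 28 for these 3 and for uc.mouse.200 held in all 22 alternative analyses.

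**Figure D2:**
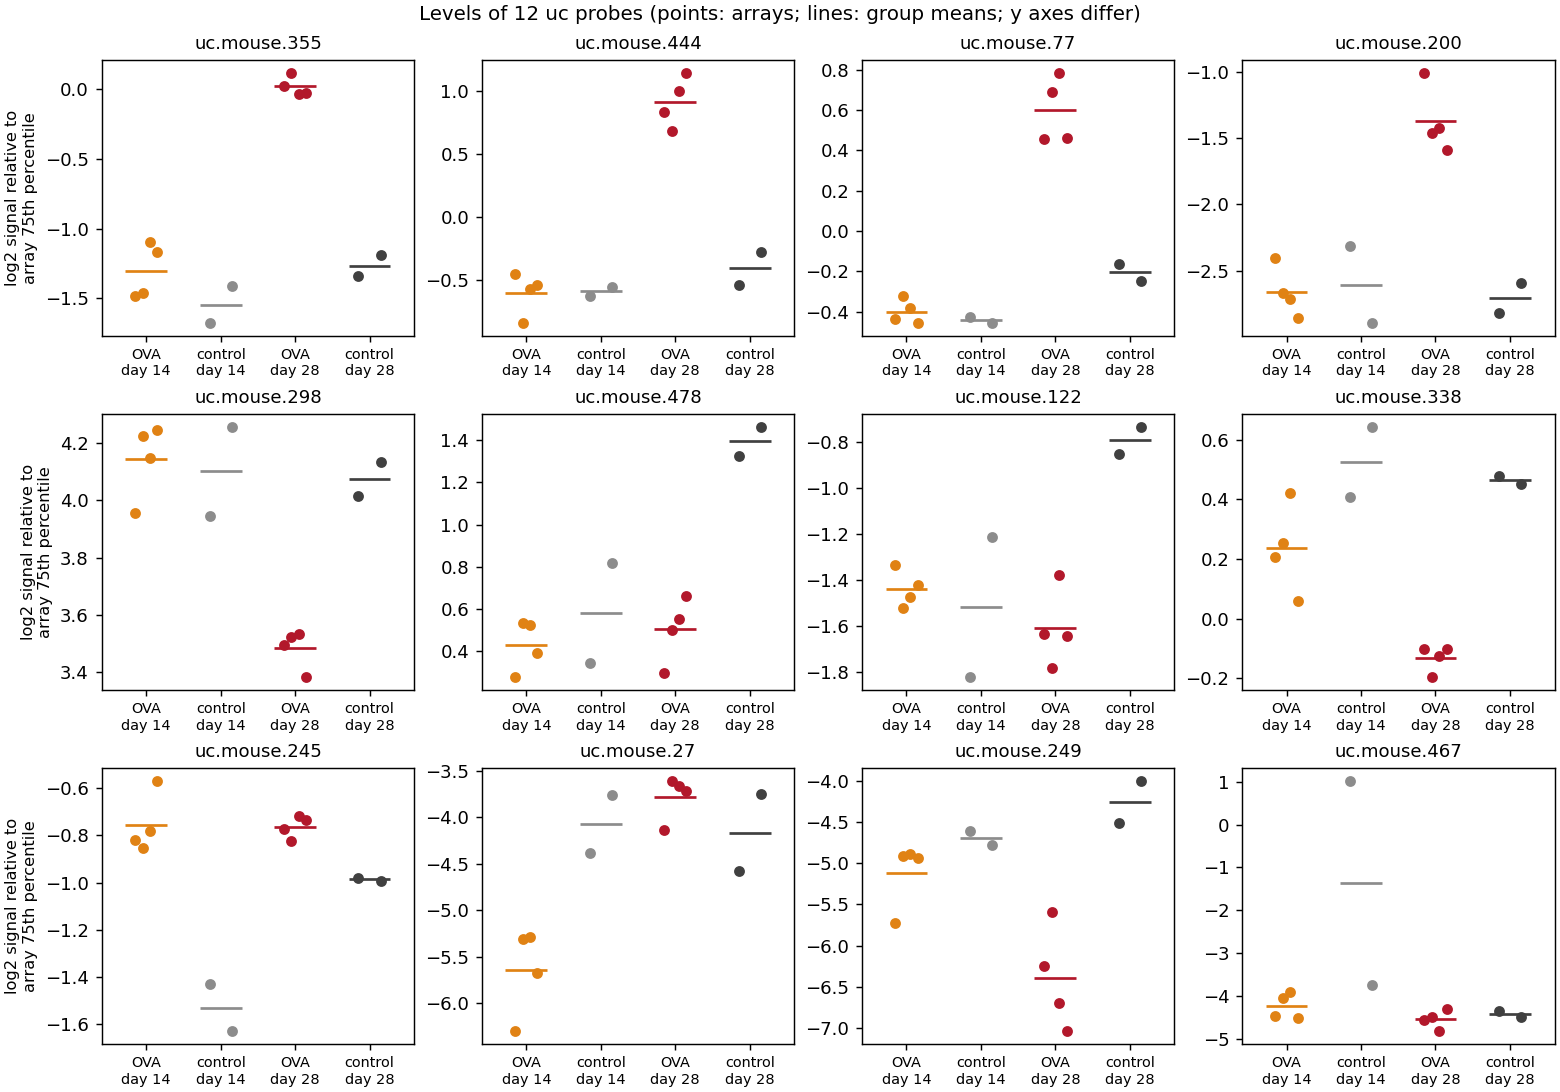
Levels of 12 probes of ultraconserved elements (log2 signal minus the 75th percentile of each array, y axes differ) in the 4 groups. Points are arrays and lines group means. In the top row the OVA arrays of day 28 lie above all other arrays, while in the last panel of the bottom row a single control array of day 14, at 1.02, stands above the rest.

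Further rises at day 28 were less firm. For uc.mouse.19 the OVA arrays had 0.86, 1.08, 0.60 and 0.62 and the controls -0.37 and 0.08, a difference of 0.94 ± 0.20 (limma adjusted p = 0.0164). The call was lost without control day 28 replicate 1 (adjusted p = 0.137 by limma). uc.mouse.160 was near the detection limit, detected on all 4 OVA arrays of day 28 and on 1 of the 2 controls, with -3.37, -3.83, -3.61 and -4.29 against -5.40 and -4.35. Its difference of 1.1 ± 0.31 (limma adjusted p = 0.0399) was lost in 9 of 21 alternatives and became -0.06 with the normexp background correction. The other 9 probes that rose, uc.mouse.431, uc.mouse.6, uc.mouse.137, uc.mouse.80, uc.mouse.106, uc.mouse.310, uc.mouse.21, uc.mouse.85 and uc.mouse.399, differed by 0.45 to 0.78 on the log2 scale.

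Of the 10 probes that fell at day 28, those of largest change had their highest levels in the controls of that day. uc.mouse.478 had 0.29, 0.50, 0.55 and 0.66 on the OVA arrays, against 1.33 and 1.46 on the controls. On day 14 it had 0.28, 0.53, 0.52 and 0.39 on OVA arrays and 0.34 and 0.82 on controls. The 2 control arrays of day 28 were thus above the other 10, and the difference fell by 0.89 ± 0.15 on the log2 scale (SE, limma adjusted p = 0.00567). Similarly, uc.mouse.122 had -1.63, -1.78, -1.38 and -1.64 on the OVA arrays of day 28 and -0.85 and -0.73 on the controls, with -1.82 to -1.21 on the 6 arrays of day 14. Its difference was -0.82 ± 0.16 (limma adjusted p = 0.0113). Both calls were lost without control day 28 replicate 2 (limma adjusted p of 0.0601 and 0.0894), and that of uc.mouse.122 without replicate 1 as well.

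A different arrangement was seen for the probe in the last panel of the middle row of the plot of levels, one of the numbered elements described further on, where the OVA arrays of day 28 were the lowest. They had -0.10, -0.20, -0.13 and -0.10, against 0.48 and 0.45 on the controls. The day 14 levels were 0.21, 0.25, 0.42 and 0.06 on OVA arrays and 0.41 and 0.64 on controls. The difference at day 28 was -0.60 ± 0.11 (limma adjusted p = 0.00979), lost without either control of that day (highest adjusted p 0.0641). In uc.mouse.298, shown above, it was -0.59 ± 0.12 (limma adjusted p = 0.012), and in uc.mouse.435 and uc.mouse.451 it was -0.59 each. The call of uc.mouse.451 (limma adjusted p = 0.0423) was lost in 13 of 22 alternatives. That of uc.mouse.435 was lost in 3, and its difference was -0.34 without control day 28 replicate 1 (limma adjusted p = 0.137). uc.mouse.249 was dim on all 4 OVA arrays of day 28, with -6.25, -5.59, -6.70 and -7.04, and had -4.51 and -4.00 on the controls. Because a dim probe gives only a bound, it was at least 1.35-fold lower with OVA (limma adjusted p = 0.0058, lost without control day 28 replicate 2). For such bounds the dim group was set to the lowest level among detected probes on each array or the probe's own level, whichever was higher.

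Leaving out either control of day 28 leaves 1 control of that day. Fewer of the elements and a smaller share of all tested probes then passed. Without replicate 2 most of the falls were lost. The median difference over the elements was -0.01 without replicate 1 and 0.00 without replicate 2. Normexp background correction moved the median of all probes from -0.03 to -0.16. With it 80 of the 205 elements passed, 14 higher and 66 lower, against 40.8% of all tested probes. With array position as a block 13 of the 205 passed, against 4.6% of all. Array position is the place of an array on its slide, from 1 to 4, which recurs on each slide. On the slide of the controls, positions 1 and 2 held day 14 and positions 3 and 4 day 28. Among the controls, day and position therefore coincide.

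On day 14, 1 of the 205 probes passed the test, uc.mouse.245, which was higher in OVA spleens. That is 0.488%, against 0.0499% of all tested probes (0.0447% higher and 0.00526% lower). It had -0.82, -0.85, -0.78 and -0.57 on the OVA arrays of day 14, against -1.43 and -1.63 on the controls. On day 28 it had -0.77, -0.83, -0.72 and -0.74 on OVA arrays and -0.98 and -0.99 on controls. The 2 controls of day 14 were thus the lowest of the 12 arrays. The difference was 0.77 ± 0.11 (SE, 1.71-fold, limma adjusted p = 0.0396), and it missed the threshold in 16 of 22 alternatives. Over the 22 its size ran from 0.53 to 0.87. All 8 spike-in RNAs used, which were added in known amounts, were also higher on the OVA than on the control arrays of day 14, by 0.11 to 0.38, and their part in the result was not tested beyond scaling by them, which gave the 0.53. At an unadjusted p under 0.05, 34 probes were counted (16.6%), against 14.0% of all tested probes. The median difference was 0.03 in both, and 22% of elements and 22.2% of all probes had arrays that did not overlap.

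Neither of the next probes by moderated t in the upward direction passed. uc.mouse.131 had -2.58, -2.55, -2.51 and -2.63 on OVA arrays of day 14 and -3.04 and -3.01 on controls (0.46 ± 0.09, limma adjusted p = 0.0973), and uc.mouse.216 differed by 0.38 ± 0.09 (limma adjusted p = 0.161). Downward, uc.mouse.27 had -6.30, -5.31, -5.29 and -5.67 on OVA arrays, where it was dim, and -4.38 and -3.76 on controls. The groups did not overlap, the bound was at least 1.00-fold, and the adjusted p was 0.101 in limma. uc.mouse.7 differed by -0.73 ± 0.22 (limma adjusted p = 0.214). Another probe, in the last panel of the bottom row of the plot of levels, had -4.46, -4.05, -3.90 and -4.50 on OVA arrays, and 1.02 and -3.73 on controls. The 1.02 was read inside the streak on control day 14 replicate 1. Its difference of -2.87 ± 0.89 (limma adjusted p = 0.215) was -0.49 without that array. The streak likewise held uc.mouse.167, at 0.32 against -3.62 on the other control of that day, uc.mouse.421, at -1.13 against -3.12, and uc.mouse.66, at 0.14 against -6.48.

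Whether the signed difference of OVA minus control changed between the days was tested as its value at day 28 minus that at day 14. In 6 of the 205 probes (2.93%, against 2.26% of all tested probes, 1.37% upward and 0.882% downward) it passed, in each case upward. At an unadjusted p under 0.05 there were 36 (17.6%, against 21.2% of all). The values were 1.39 ± 0.28 for uc.mouse.200, 1.33 ± 0.21 for uc.mouse.444, 1.04 ± 0.19 for uc.mouse.355, 0.76 ± 0.16 for uc.mouse.77 and 0.70 ± 0.16 for uc.mouse.137 (SE, limma adjusted p from 0.0168 to 0.0451). The remaining probe, uc.mouse.27 (limma adjusted p = 0.0475), was dim on all 4 OVA arrays of day 14 and has only a bound, at least 0.39 on the log2 scale. Of 21 alternatives, 14 lost the call of uc.mouse.137, 13 that of uc.mouse.77, 12 that of uc.mouse.200, 8 that of uc.mouse.355 and 3 that of uc.mouse.444. For uc.mouse.27 the call was lost in 14 of 20 and the sign changed in 1. In 5 of the 6 the OVA arrays of day 28 stood apart from the other groups. uc.mouse.137 had -0.66, -0.52, -0.61 and -0.76 on these, against -1.25 and -1.47 on the controls of that day and -1.45 to -1.21 on day 14. In uc.mouse.27 it was the dim OVA arrays of day 14 that stood apart, and OVA minus control was 0.38 at day 28 and -1.57 at day 14. The upward direction turned with the processing. The filter for all 12 arrays gave 7 higher and 8 lower, 15 of 119, against 6.28% of all probes so filtered. Normexp gave 10 higher and 68 lower, 78 of the 205, against 32.4% of all tested probes. The replicate block left 1 probe, against 0.371% of all, and array position left 0 of the elements and 0 of all probes. Leaving out control day 28 replicate 1 or control day 14 replicate 2 leaves 1 control of that day, in the latter case the array with the streak. Calls were lost in the former fit and further ones appeared in the latter, and the share of all tested probes that passed moved likewise. The median change over the elements was then -0.04 and 0.02, against -0.07 and -0.06 over all tested probes.

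Over the 205 probes the differences of the 2 days had a Pearson correlation of 0.241, and 122 had the same sign on both. Probes read inside the streak were kept in these values. The same values were not computed over all tested probes, so nothing particular to the elements can be read from them. The comparisons share no arrays, but all controls lay on 1 slide. Of the 15 probes higher at day 28, 11 had positive differences at day 14, and of the 10 lower, 4 had negative ones.

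**Figure D3:**
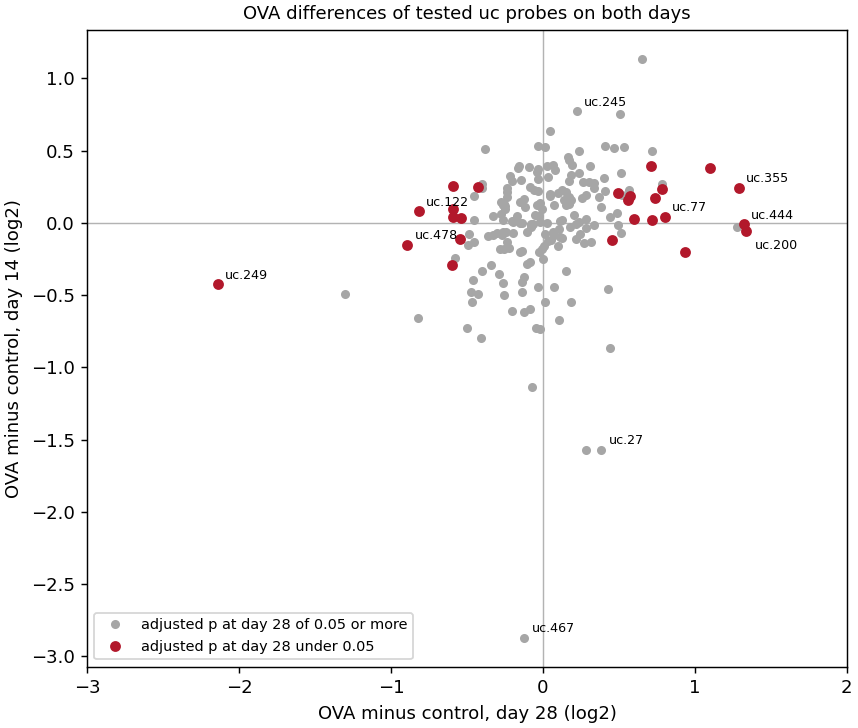
Log2 difference of OVA minus control at day 28 (x) and at day 14 (y) for the 205 tested probes of ultraconserved elements. Dark points passed the test at day 28. Those to the far right, uc.mouse.444, uc.mouse.355 and uc.mouse.200, have y values of -0.01, 0.24 and -0.05, and the lowest point was read inside the streak.

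OVA spleens of day 28 and day 14 differed in 53 of the 205 probes (25.9%, against 31.7% of all tested probes), 29 higher at day 28 (14.1%, against 15.1%) and 24 lower (11.7%, against 16.5%). At an unadjusted p under 0.05 there were 80 (39.0%, against 43.0%). The smallest adjusted p-values among the rises were those of uc.mouse.444 (1.51 ± 0.12, limma adjusted p = 2.87e-05), uc.mouse.355 (1.32 ± 0.11, limma adjusted p = 3.3e-05) and uc.mouse.77 (1.00 ± 0.09, limma adjusted p = 5.55e-05), whose arrays are given above. uc.mouse.200 rose by 1.29 ± 0.16. uc.mouse.27 had -4.14, -3.61, -3.66 and -3.72 on the OVA arrays of day 28, all above its 4 dim values of day 14, and was at least 1.23-fold higher (limma adjusted p = 0.000509). With normexp correction its difference was -0.11. uc.mouse.172 had -3.09, -3.20, -2.36 and -2.68 on day 28 and -3.89, -4.36, -3.53 and -4.21 on day 14, a rise of 1.17 ± 0.32 (limma adjusted p = 0.0172). That call was lost without OVA day 28 replicate 3 (limma adjusted p = 0.0518) and with normexp correction, where the rise was 0.08 (limma adjusted p = 0.547).

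Arrays of the OVA groups did not overlap in 26.8% of the elements and 35.3% of all probes. Of the probes that passed, this held for 24 of the 29 that were higher and 20 of the 24 that were lower. The 6 of largest fall among these 20 differed by -0.73 to -0.56. uc.mouse.182 had -2.45, -2.55, -2.50 and -2.95 on day 28 and -1.82, -1.93, -1.82 and -1.95 on day 14 (-0.73 ± 0.12, limma adjusted p = 0.00165). uc.mouse.269 had -2.54, -2.52, -2.58 and -2.42 on day 28 and -1.95, -2.07, -1.73 and -1.73 on day 14 (-0.65 ± 0.10, limma adjusted p = 0.000978). uc.mouse.298 fell by 0.66 ± 0.10, uc.mouse.308 by 0.60 ± 0.10, uc.mouse.195 by 0.57 ± 0.16 and uc.mouse.459 by 0.56 ± 0.11. The call of uc.mouse.195 was lost in 4 of 22 alternatives (highest limma adjusted p 0.0617). The controls of day 28 had -2.12 and -2.35 for uc.mouse.182, between the OVA groups, and -1.91 and -2.05 for uc.mouse.269, within the range of the OVA arrays of day 14. Scaled by spike-ins, 44 of the 205 probes passed, 35 higher and 9 lower, against 25.5% of all tested probes. With normexp 146 of the 205 passed, 21 higher and 125 lower, against 66.5% of all.

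**Figure D4:**
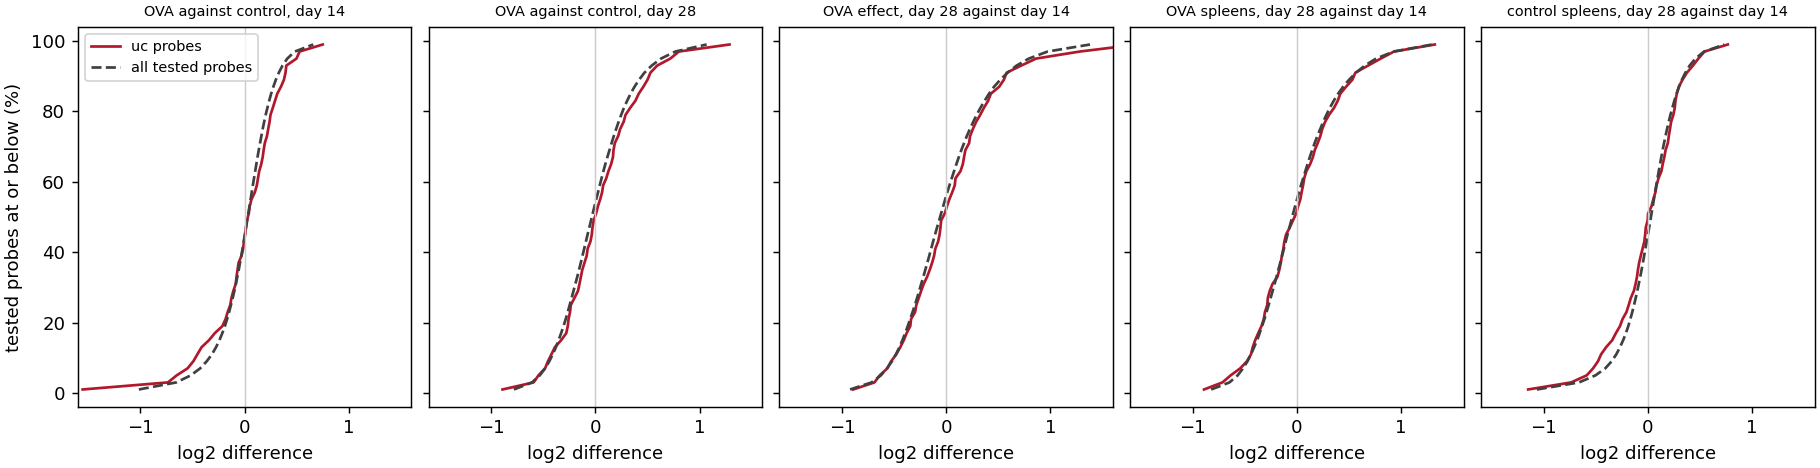
Cumulative percentage of tested probes (y) at or below each log2 difference (x) in the 5 comparisons, for the 205 probes of ultraconserved elements (solid) and all 76096 tested probes (dashed). The curves run close together, with medians of 0.03 and 0.03 in OVA against control at day 14 and of -0.00 and -0.03 at day 28.

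Control spleens of day 28 and day 14, which lay on the same slide, did not differ in any of the 205 probes at an adjusted p under 0.05 by limma, against 0.00131% of all tested probes. The days lay at different positions of that slide, so day and position cannot be told apart here. At an unadjusted p under 0.05 there were 19 (9.27%, against 10.3% of all). Arrays did not overlap in 38.0% of the elements and 37.1% of all probes. By moderated t the first were uc.mouse.478, with 1.33 and 1.46 on day 28 and 0.34 and 0.82 on day 14 (0.82 ± 0.17, limma adjusted p = 0.26), and uc.mouse.139, with -1.15 and -1.43 on day 28 and -1.96 and -2.25 on day 14 (0.82 ± 0.18, limma adjusted p = 0.292). uc.mouse.245 differed by 0.54 ± 0.12, uc.mouse.308 by -0.53 ± 0.14, uc.mouse.290 by -0.79 ± 0.22 and uc.mouse.399 by -0.48 ± 0.13, each with a limma adjusted p above 0.29. With 2 arrays in each group this comparison had a median SE of 0.21 over the elements, against 0.18 for OVA with control. Without control day 14 replicate 2, the array with the streak is the only control of day 14. The median difference over the elements was then 0.01.

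In all, 60 probes passed in at least 1 comparison (29.3%, against 33.7% of all tested probes). On the first principal component of the 205 tested probes (33.7% of the variance), the 4 OVA arrays of day 28 lay between 2.14 and 5.56 and the other 8 between -5.70 and -0.35. Control day 14 replicate 1, the array with the streak, was the lowest.

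**Figure D5:**
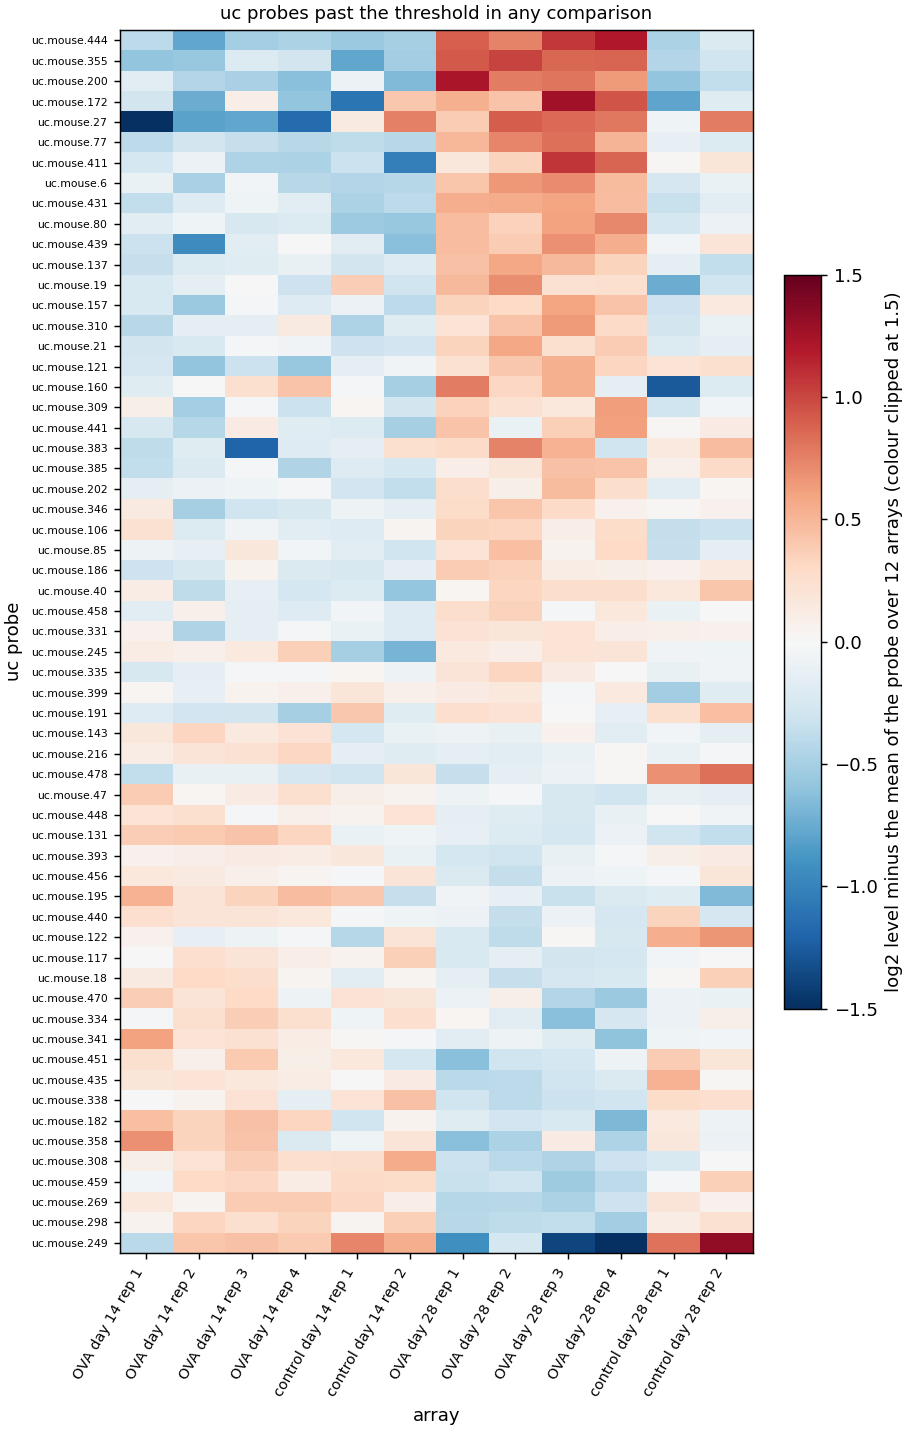
Level of each of the 60 probes that passed in at least 1 comparison, minus that probe's mean over 12 arrays (colour, log2, clipped at 1.5), by array in columns. Rows are ordered by the mean on the OVA arrays of day 28, which was positive in 34 of the 60.

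Some numbered elements are known from published work, though the files do not say whether the array's numbers follow the published ones. Of 22 such numbers, 14 were on the array and 10 were tested, 4 were detected on all 12 arrays and 3 on none. At day 28, 2 of the 10 passed the test of OVA against control, uc.mouse.160 and the probe that was lowest on the OVA arrays of day 28, where 12.8% of all tested probes passed. Of these, uc.mouse.160 entered the test only through the OVA arrays of day 28, where it was high. In OVA spleens of day 28 against day 14, 2 of the 10 passed, against 31.7% of all tested probes: that same probe fell by 0.37 (limma adjusted p = 0.012) and another rose by 0.49 (limma adjusted p = 0.015). None of the 10 passed in the other comparisons. uc.mouse.8, near the detection limit, had -5.43, -4.45, -5.05 and -5.88 on OVA arrays of day 28 and -3.94 and -3.85 on controls. Its difference of -1.30 missed the threshold (limma adjusted p = 0.076). It entered the test only through the controls of day 28, where it was high. uc.mouse.63 and uc.mouse.73 were detected on 11 arrays each, and their differences between OVA and control at day 28 were 0.17 and 0.24 (limma adjusted p of 0.636 and 0.509).

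Ultraconserved elements often lie in genes for splicing factors, and of 36 genes for splicing and RNA-binding proteins 1 had a named probe, a non-coding transcript of Hnrnpa1, a protein that binds pre-mRNA and regulates splicing. The Hnrnpa1 probe was lower in OVA than in control spleens at day 28, by -0.48 ± 0.13 on the log2 scale (limma adjusted p = 0.0391), and lower in OVA spleens of day 28 than of day 14, by -0.31 ± 0.11 (limma adjusted p = 0.0493). Of all tested probes, 12.8% and 31.7% passed these tests. Its calls were not followed through the alternative analyses, and a link to the elements was not tested. At day 14 its difference between OVA and control was -0.07 ± 0.13 (limma adjusted p = 0.855).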

How the data were processed

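Spleen RNA of 12 mice was measured on 12 arrays of 4 groups. The deposited scanner files hold spot intensity on a linear scale, for which the headers name Feature Extraction 11.5.1.1 and the submitters' processing notes version 9.1. Flags for detection, outliers and saturation are other columns of the deposited files. The authors' normalized value table holds no ultraconserved-element probe and was not used.

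The processed, background-corrected signal was log2-transformed and each array's 75th percentile over 175906 non-control spots was subtracted, without a floor or pseudocount. Outlier spots were dropped and the rest averaged by probe. 372 of the 373 probes kept a value on every array; uc.mouse.165 was flagged on control day 14 replicate 1. No non-control spot was saturated. A spot's excess was its log2 level minus the median of that spot on the other arrays. Streaks were marked where the median excess in a block of 9 by 9 spots exceeded 1 in size, in either direction. One linear model of the 12 arrays was fitted with limma 3.58.1 (R 4.3.3), with 4 group terms and 8 residual degrees of freedom, over 76096 probes, with eBayes and Benjamini-Hochberg adjustment over all of them. The number of arrays limits the precision.

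Probes are named by rule: up to 6 highest and 6 lowest differences among probes past the threshold with no overlap of arrays, or 3 of largest moderated t each way where fewer than 3 passed, the 6 brightest, and 22 numbered elements. Probes named beside counts, in the streak or for a change in detection, and the other probes that passed at day 28, were chosen after their values were seen. The members, lists and tests were chosen with earlier results of these data known.

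On simulated data with 200 of 76096 probes changed, 74% of 2-fold and 94% of 4-fold changes were recovered at day 28 with 12 false calls, and 60% and 94% at day 14 with 0. The simulated noise was independent between arrays, without slide effects, streaks or a detection limit. The changed probes were drawn from all tested probes, so recovery among the elements was not measured. Alternatives were other scalings, background correction, filters and blocks, and leaving out each array. Normexp used median spot and background signals, because the planned mean signal was not among the columns used here. Some of the numbered elements are described without their numbers, and their probes appear by name in the plots where they passed a test.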

Additional observations from a re-analysis of the deposited data

Results flagged for a closer look

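In 6 probes the signed difference of OVA minus control was higher at day 28 than at day 14 by a test of the change itself (limma adjusted p from 0.0168 to 0.0475). The log2 values were 1.39 for uc.mouse.200, 1.33 for uc.mouse.444, 1.04 for uc.mouse.355, 0.76 for uc.mouse.77 and 0.70 for uc.mouse.137. The fitted value of 1.95 for uc.mouse.27 rests on OVA arrays of day 14 on which it was not well above background, so the data give only a bound of at least 0.39. In that probe OVA minus control was 0.38 at day 28 and -1.57 at day 14. Each of these values sets arrays of different slides against each other. Of the 20 or 21 alternative analyses of each probe, 3 lost the call of uc.mouse.444 and 8 to 14 lost that of each other probe.

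Of 90 groups of 4 arrays examined, 2 held an array far from the others, where chance alone would mark about 5% of such groups. For a numbered element detected on no array, OVA day 14 replicate 2 had -5.03 and the other 3 arrays of the group lay between -6.54 and -6.37. The 117 probes detected nowhere had a median of -5.25 on that array and of -6.73 to -6.43 on the other 3. For uc.mouse.249, dim on all 4 OVA arrays of day 14, replicate 1 had -5.73 and the others lay between -4.94 and -4.89.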

How the results depend on the processing

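At day 14, the 1 probe passing became 0 with the percentile taken over detected probes, without a filter on dim probes, with only the groups compared, with a replicate block and with array position as a block; with spike-in scaling, which moved the median of all probes to -0.21, the 1 that passed was a different one, uc.mouse.27, lower (-1.81, limma adjusted p = 0.0441). Leaving out 1 OVA array gave 0 or 1, against 0.00263% to 0.092% of all tested probes. With control day 14 replicate 2 left out, which leaves the array with the streak as the only control of that day, more passed. At day 28, normexp gave 80 and array position 13. Leaving out 1 OVA array gave 18 to 25, against 7.03% to 12.7% of all tested probes. Leaving out either control of day 28, which leaves 1 of that day, lowered the count further. For the difference between days, main count 6, spike-in scaling gave 11, normexp 78 (10 higher, 68 lower) and no filter 2. The filter for all 12 arrays gave 15 (7 higher, 8 lower), the replicate block 1 and array position 0. Leaving out 1 OVA array gave 1 to 5, against 0.464% to 2.01% of all tested probes. Leaving out a control, which leaves 1 in its group, took the count below 6 or above it. Under spike-in scaling and normexp the median of all probes was 0.17 and -0.22. Between OVA days, normexp gave 146, with a median of all probes of -0.23, and leaving out arrays 41 to 59. Between control days the count was 0 in the other analyses and 0 with any OVA array left out. With a control left out, which leaves 1 array in its group, the count was not always 0. OVA day 14 detection was 201 when 2 of the 4 arrays sufficed, 219 with the software's weaker call of a positive and significant signal, and 119 to 180 with arrays left out. With normexp 3 differences changed sign: uc.mouse.160 at day 28 (-0.064), and uc.mouse.27 between days (-0.041) and between OVA days (-0.11). The causes were not tested. The shares called over all tested probes moved too. With normexp they were 40.8% at day 28, 32.4% for the difference between days and 66.5% between OVA days. In the main analysis they were 12.8%, 2.26% and 31.7%. For the difference between days, spike-in scaling called 3.43% of all and no filter 0.407%. Correlations of same-numbered arrays ran from -0.19 to 0.30. With 2 or 4 arrays in a group they cannot show whether replicate numbers pair the samples. With the replicate block 17 probes passed at day 28, against 7.84% of all tested probes. Between OVA days 51 passed, against 22510 of all 76096 tested, and between control days 0. The element with both strands has no value, since no name gives a strand. Near the detection limit signal over background limits what can be seen, above all on OVA day 14 replicate 2.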
